A study of Mus musculus with 57 samples.

Results

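Vim, Pdgfra, Pdgfrb, Acta2, Tagln and Cspg4 are 6 genes used to mark mesenchymal cells and the mural cells that wrap blood vessels. They were followed through 57 single cells of the newborn mouse kidney, as 6 of the 12087 genes in the deposited table, chosen by gene symbol. The cells carried the transgene Tg(Crym-EGFP)GF82Gsat, in which regulatory sequence of Crym drives the green fluorescent protein EGFP, and were taken at postnatal day 4 from mice of mixed background and unknown sex. Kidneys were minced, digested with trypsin and sorted by fluorescence, and the structure named for every cell is the renal vesicle. The pool size is given as 2 kidneys, and there was no control, treatment or second group, so no test between groups was possible. Levels are given as RPKM, in which reads are divided by gene length and by the mapped reads of the cell, so they can be compared between genes of different length.

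Vim encodes vimentin, the intermediate filament protein of mesenchymal cells. Pdgfra and Pdgfrb encode the receptor tyrosine kinases that bind platelet-derived growth factors (PDGF); the alpha receptor is typical of stromal fibroblasts, and the beta receptor of pericytes and mesangial cells. Acta2 encodes smooth muscle alpha-actin, Tagln the actin-binding protein transgelin (SM22), and Cspg4 the proteoglycan NG2 found on pericytes. In the developing kidney, stromal progenitors give rise to interstitial fibroblasts, pericytes and mesangial cells, while the renal vesicle forms from a separate cap mesenchyme that becomes epithelial and turns on Pax8. Vimentin is also made by the cap mesenchyme itself, and podocytes retain it together with the transcription factor Wt1.

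Each cell was placed by measured values. A cell was called Pdgfra-high at Pdgfra RPKM 100 or more, which took 2 cells (13 and 53), and Pax8-bearing at Pax8 RPKM 5 or more, which took 50 cells. The other 5 cells (1, 25, 35, 46 and 58) had the complement gene C1qb above RPKM 1000 and were macrophage-like by 10 markers, of which every one was detected in all 5. No cell was both Pdgfra-high and Pax8-bearing. Pax8 just inside its threshold was 10.7 in cell 50 and 15.8 in cell 54, and just outside it 1.99 in cell 58 and 1.71 in cell 46. Pdgfra was 237 in cell 13, the lower of the Pdgfra-high pair, and 1.31 in cell 28 and 0.267 in cell 24, the highest outside it.

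The promoters of Acta2 and Vim are shown because these 2 members were detected in the most cells and hold different motifs near the start site. Each sequence is the 250 bases before the start site, read 5′ to 3′ on the strand of the gene, from RefSeq on build GRCm38.p6; 4 of the 6 members matched an entry there. In Acta2 (chr19:34255374-34255623, minus strand) the capitals mark matches to CCNNNNNNGG with at least 5 of the 6 central bases A or T, a loosened form of the CArG box bound by serum response factor. In Vim (chr2:13574061-13574310, plus strand) the capitals mark TATAAA, the core of the TATA box.
Acta2: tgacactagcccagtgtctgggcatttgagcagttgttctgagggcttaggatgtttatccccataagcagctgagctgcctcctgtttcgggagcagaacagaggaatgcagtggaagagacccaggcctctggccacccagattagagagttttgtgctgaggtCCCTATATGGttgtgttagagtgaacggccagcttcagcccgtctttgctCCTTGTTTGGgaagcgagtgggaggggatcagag
Vim: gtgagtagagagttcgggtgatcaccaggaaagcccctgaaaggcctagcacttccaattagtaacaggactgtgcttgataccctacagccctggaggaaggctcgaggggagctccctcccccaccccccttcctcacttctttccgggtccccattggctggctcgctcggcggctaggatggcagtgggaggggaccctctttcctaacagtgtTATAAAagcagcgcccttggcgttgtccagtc

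The matches in Acta2 began at positions -84 (CCCTATATGG) and -34 (CCTTGTTTGG) from the start site. The motif reads the same on both strands, and 8.59% of 32851 promoter windows of this length held at least 1 match and 0.670% at least 2. TATAAA began at position -32 in Vim, and 12.4% of the windows held it on either strand; the searched motifs did not overlap each other. Neither motif was found in the windows of Pdgfra and Cspg4. A match is a description of these letters only. Srf, which encodes serum response factor, was at RPKM 26.7 in cell 13, 0.27 in cell 53 and at 1 or more in 14 of 50 Pax8-bearing cells.

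The median cell held an estimated 1.43 M reads (lowest 0.462 M, highest 2.21 M), and 2809 to 6502 genes were detected per cell at RPKM 1 or more. In a cell of median depth, RPKM 1 corresponds to about 2.66 reads of Vim, 13.1 of Pdgfra, 7.91 of Pdgfrb, 3.70 of Acta2 and 2.33 of Tagln, and 3 reads, the upper limit that a count of 0 allows, to RPKM 1.13 of Vim and 0.230 of Pdgfra. A member was called detected at RPKM 1 or more. Each share of cells carries its exact 95% interval by Clopper and Pearson, which takes in only the drawing of cells. Every label gives a pool size of 2 kidneys, and whether all cells came from the same pool is not stated. The deposited table keeps genes above RPKM 3 in at least 2 cells; Pdgfra and Pdgfrb were at that minimum of 2 cells, as were 997 genes (8.25%). The headers of all 57 cells name 1 run and lane. No doublet caller was run, and the labels state that each capture chamber was inspected under the microscope.

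The members were sparse and uneven, in cells where a median of 4307 of all 12087 genes was detected. Absence from many cells is therefore not particular to the members, and how far they differ from other genes was not tested. Of the 57 cells, 27 (47.4%, interval 34.0 to 61.0) had none of the 6, 16 had 1, 7 had 2, 3 had 3 and 4 had 4 or more. Mean RPKM over all cells ranked as Vim 57.4 ± 200.0 (SD, n = 57 cells), Acta2 46.3 ± 136, Tagln 33.4 ± 135, Pdgfra 10.6 ± 57.1, Pdgfrb 6.64 ± 48.9 and Cspg4 1.55 ± 4.24. Every SD exceeded its mean, and the order of the means is a description that was not tested. The median was 0 for each of the 6.

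**Figure D1:**
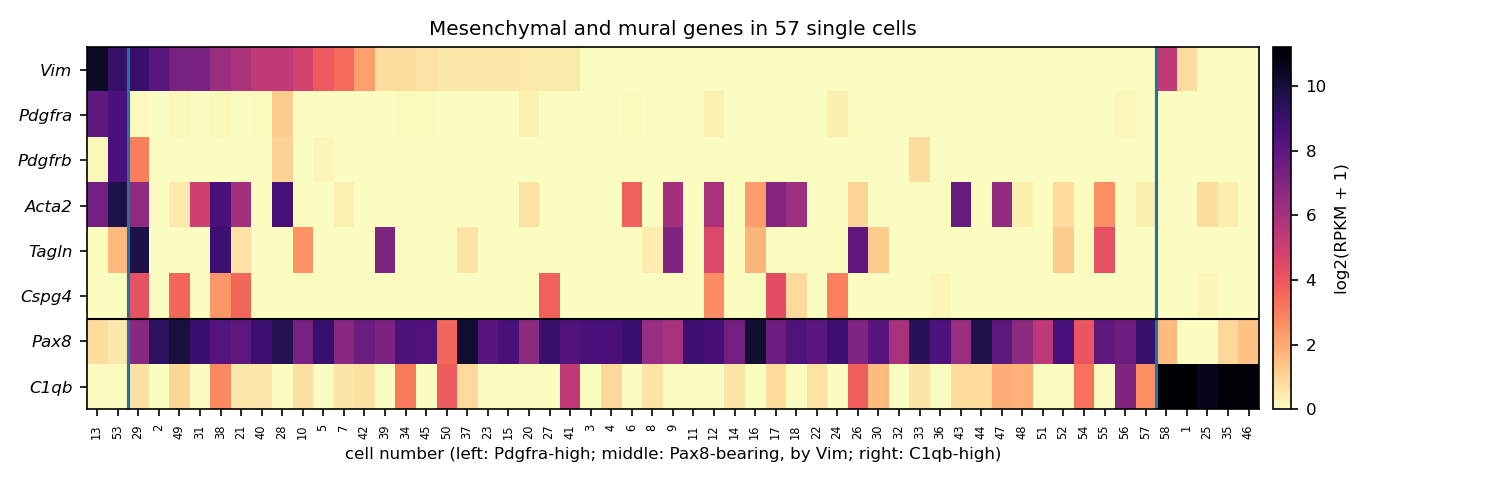
Values of the 6 members, with Pax8 and C1qb for reference, in each of 57 cells (columns, by cell number), coloured by log2(RPKM + 1). Vertical lines separate the 2 Pdgfra-high cells, the 50 Pax8-bearing cells ordered by Vim, and the 5 C1qb-high cells; the Pdgfra row is dark in cells 13 and 53 alone, while Vim, Acta2 and Tagln are scattered over the Pax8-bearing cells.

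Vim lies on chromosome 2 from 13495938 to 13504453; this and the positions of the other members are on build mm9. The gene reached RPKM 1 in 15 of 57 cells (26.3%, interval 15.5 to 39.7), in 2 of 2 Pdgfra-high cells, in 12 of 50 Pax8-bearing cells (24%, interval 13.1 to 38.2) and in 1 of 5 C1qb-high cells. It was at RPKM 1311 in cell 13 and 560 in cell 53. Among the 12 Pax8-bearing carriers it ran from 3.84 to 511 with a median of 48.4, and the highest were cell 29 (511), cell 2 (267), cell 49 (156), cell 31 (147) and cell 38 (81.8). Both Pdgfra-high cells were therefore above every Pax8-bearing cell, though cell 29 came close to cell 53. The C1qb-high carrier was cell 58 at 39.5. Of the remaining cells, 11 had a trace of Vim below RPKM 1 and 31 were listed at 0.

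**Figure D2:**
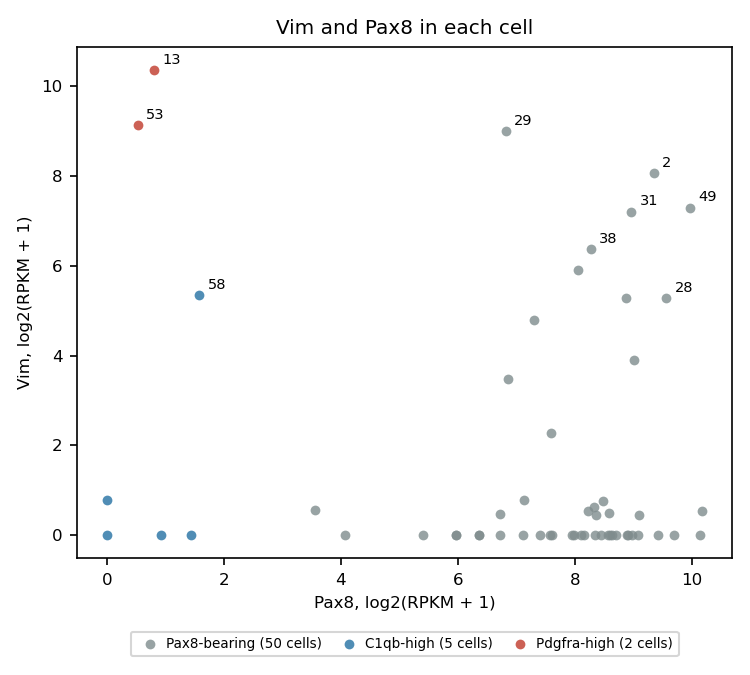
Vim against Pax8 in each of 57 cells, both axes as log2(RPKM + 1), with a point per cell coloured by class and selected cells numbered. Cells 13 and 53 stand at high Vim and low Pax8, while 12 Pax8-bearing cells carry both genes at RPKM 1 or more for Vim and 5 or more for Pax8.

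Vim and Pax8 were thus carried together in 12 cells. Pax8 ran from 112 to 1003 (median 388) in the 12 carriers and from 10.7 to 1160 (median 310.2) in the 38 other Pax8-bearing cells. Median depth was 1.57 M reads in the carriers and 1.44 M in the others. Wt1, which marks nephron progenitors and podocytes, was detected in 10 of 12 carriers and 32 of 38 others, at medians of RPKM 305 and 49.0 with overlapping ranges (0.140 to 1382 and 0.167 to 865). Cdh6, a cadherin of the early nephron tubule, was detected in 0 of 12 carriers (upper limit 26.5%) and in 16 of 38 others (42.1%, interval 26.3 to 59.2). The epithelial cadherin Cdh1 was in 2 of 12 and 12 of 38, with intervals of 2.09 to 48.4% and 17.5 to 48.7%. Penk, which encodes proenkephalin and is a renal stromal gene, was detected in 5 of 12 carriers (41.7%, interval 15.2 to 72.3) and 2 of 38 others (5.26%, interval 0.644 to 17.7); outside cell 28 (246) those levels were low, from 1.00 to 6.08. In all 17 genes were set side by side in this way, and those named were chosen after their values were seen. The same was done for carriers of Acta2, Tagln and Cspg4. Penk was in 4 of 14 Acta2 carriers and 3 of 36 others, and in 2 of 11 Tagln carriers and 5 of 39 others. It was in 4 of 8 Cspg4 carriers and 3 of 42 others, so the Penk contrast is not particular to Vim.

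Pdgfra (chromosome 5, 75548316 to 75594229) was nearly all-or-none. It was at RPKM 237 in cell 13 and 365 in cell 53, about 3368 and 2953 estimated reads. The next value was 1.31 in the Pax8-bearing cell 28, about 21 reads, and 11 more Pax8-bearing cells had values below 1, each worth about 1 to 3 reads. The gene was listed at 0 in 38 of 50 Pax8-bearing cells and in all 5 C1qb-high cells. At RPKM 1 or more, Pdgfra was together with Pax8 in 1 of 50 cells (2%, interval 0.0506 to 10.6), and without cell 28 in 0.

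Pdgfrb (chromosome 18, 61204804 to 61244721) separated the Pdgfra-high pair. It was at RPKM 370 in cell 53 and 0.115 in cell 13, the latter worth about 1 read. It was 6.90 in the Pax8-bearing cell 29 and 1.08 in cell 28, below 1 in 2 more Pax8-bearing cells, and listed at 0 in the other 46 and in all C1qb-high cells. Pdgfrb was thus together with Pax8 in 2 of 50 cells (4%, interval 0.488 to 13.7), and in 1 without cell 28 or without cell 29. All 3 cells with Pdgfrb also had Vim and Acta2 at RPKM 1 or more.

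Acta2 (chromosome 19, 34314827 to 34329826) reached RPKM 1 in 16 of 57 cells (28.1%, interval 17.0 to 41.5), and 14 of these were Pax8-bearing (28% of the 50, interval 16.2 to 42.5). It was at RPKM 860 in cell 53 and 169 in cell 13. Among the 14 Pax8-bearing carriers it ran from 4.11 to 397 with a median of 70.9, led by cell 28 (397), cell 38 (371) and cell 43 (202), and these 3 were above cell 13. None of the 5 C1qb-high cells reached RPKM 1. Actin genes are near-identical in part and can share reads, and the part of such reads in the Acta2 values was not tested. Actb, the cytoplasmic beta-actin, was between 1331 and 17368 in the 32 cells where Acta2 was listed at 0.

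Tagln (chromosome 9, 45737711 to 45744141) reached RPKM 1 in 12 of 57 cells (21.1%, interval 11.4 to 33.9), of which 11 were Pax8-bearing (22% of the 50, interval 11.5 to 36.0). It was highest in the Pax8-bearing cells 29 (RPKM 882), 38 (464), 26 (243), 39 (137), 9 (124) and 12 (21.8). In the Pdgfra-high pair it was 0 in cell 13 and 2.09 in cell 53, about 3 reads. The Tagln level of that pair lay within the range of the Pax8-bearing cells, with 9 of the 50 above both.

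The 2 contractile genes overlapped in some cells and were apart in others. Both were at RPKM 1 or more in 7 cells, which is 43.8% of the Acta2 carriers and 58.3% of the Tagln carriers. At RPKM 20 or more, Acta2 was found in 13 cells, of which 4 (9, 12, 29 and 38) had Tagln at that level and 7 had Tagln listed at 0. Tagln reached RPKM 20 in 6 cells, and the remaining 2 were cell 26 with Acta2 at 0.990 and cell 39 with Acta2 at 0. Spearman rho between them was 0.35 across 57 cells that share a run and lane, given as a description.

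**Figure D3:**
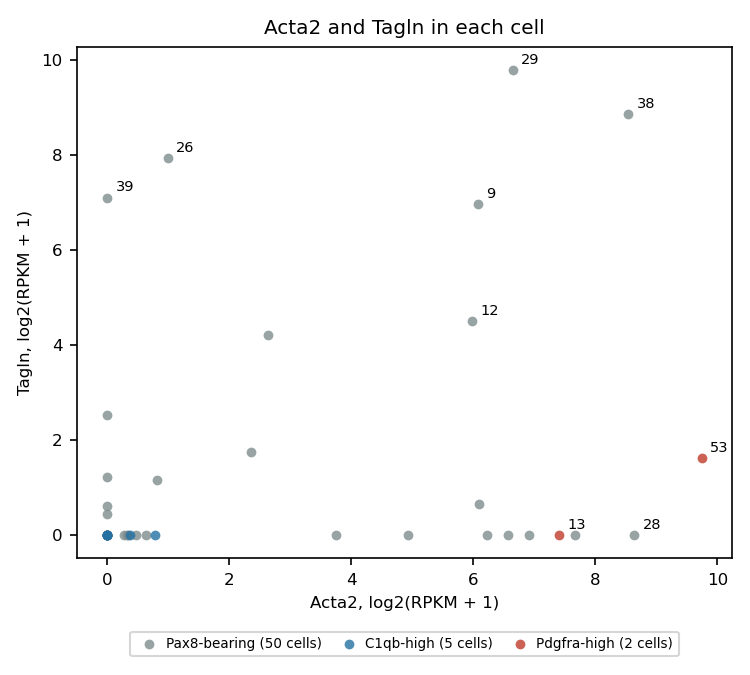
Tagln against Acta2 in each of 57 cells, both axes as log2(RPKM + 1), with a point per cell coloured by class and selected cells numbered. Cells 9, 12, 29 and 38 carry both genes, cells 26 and 39 stand near 0 on the Acta2 axis, and cells 13, 28 and 53 have Acta2 with little or no Tagln.

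Cspg4 (chromosome 9, 56712911 to 56747677) reached RPKM 1 in 8 cells (14.0%, interval 6.26 to 25.8), all Pax8-bearing, at RPKM 4.32 to 19.1 with a median of 11.0. The highest were cells 17 (19.1), 29 (16.8), 27 (12.5), 21 (11.0) and 49 (11.0). It was listed at 0 in both Pdgfra-high cells, including cell 53 with its high Pdgfrb. Of the 8 carriers, 4 also had Vim, 5 Acta2, 3 Tagln and 1 Pdgfrb.

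At least 2 of the mural members Pdgfrb, Acta2, Tagln and Cspg4 were detected in 10 of 57 cells (17.5%, interval 8.75 to 29.9), namely cells 9, 12, 16, 17, 21, 28, 29, 38, 53 and 55. Of these 10, 9 were Pax8-bearing (18% of the 50, interval 8.58 to 31.4). Counting all 6 members, 27 of 50 Pax8-bearing cells (54%, interval 39.3 to 68.2) had at least 1 and 3 had 4 or more, which were cells 28, 29 and 38.

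These 3 cells differed from each other. Cell 38, the deepest at 2.21 M reads, had Vim at RPKM 81.8, Acta2 at 371, Tagln at 464 and Cspg4 at 4.32 beside Pax8 at 308 and Jag1, the Notch ligand of the renal vesicle, at 162. Cell 29 had Vim at 511, Tagln at 882, Acta2 at 99.4, Cspg4 at 16.8 and Pdgfrb at 6.90 beside Pax8 at 112; its summed RPKM over 13 nephron markers, 241, was the lowest of the 50 Pax8-bearing cells, with the next at 423. Cell 28 had Acta2 at 397 and Vim at 37.8 beside Pax8 at 758, and Tagln and Cspg4 were listed at 0. Its sum over the nephron markers was 1085, rank 9 from the lowest. Jag1 was at 5.00, Lhx1 at 0.620 and Ccnd1 at 5.86 in cell 28, beside Pax8-bearing medians of 209, 62.1 and 454. Wt1 was at 262 and Sall1 at 52.3 there, beside medians of 98.3 and 55.2. The renal stromal genes Meis1 and Tnc were at 107 and 100 in cell 28, while Meis2 was at 7.95, Cxcl12 at 2.30 and Aldh1a2 at 0.520. Meis1 was detected in 14 Pax8-bearing cells and Tnc in 12. Tnc was at 0.0835 in cell 13 and 0 in cell 53. Cell 28 alone among Pax8-bearing cells had the matrix genes Dcn (decorin, 173) and Col1a1 (type I collagen, 33.2) at RPKM 1 or more. These were picked after their values were seen, and other matrix genes were not particular to cell 28. Col1a2, also of type I collagen, was in 6 Pax8-bearing cells, Col3a1 in 3, Fbn1 in 11 and Fn1 in 31. Genes detected numbered 4581 in cell 28, 3703 in cell 29 and 5713 in cell 38, within the range of the other cells. Whether a chamber held RNA of more than 1 cell was not tested.

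Against the Pax8-bearing cells, the Pdgfra-high pair had higher Vim, Acta2 and Pdgfrb and no higher Tagln or Cspg4. The difference of mean log2(RPKM + 1), Pdgfra-high minus Pax8-bearing, was 8.26 for Vim (SD over the 50 cells 2.60), 6.84 for Acta2 (SD 2.83), 4.25 for Pdgfrb (SD 0.45), -0.34 for Tagln (SD 2.56) and -0.57 for Cspg4 (SD 1.30). For Pdgfra, whose level chose the cells, it was 8.14. The value for Pdgfrb rests on cell 53: it was 8.43 without cell 13 and 0.06 without cell 53. The sign for Tagln turned to 0.47 without cell 13. With 2 cells and no labelled replicates no test was made.

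All 6 members had a mean RPKM of 1 or more, Pdgfra and Pdgfrb only through the Pdgfra-high cells. Vim and Acta2 were higher by at least 2, as were Pdgfra, by rule, and Pdgfrb, through cell 53; of 11084 genes with that mean, 10% were higher by as much. Because the rule and the filter favour these last 2 members, nothing is read from the count of 4. No member was lower by at least 2, beside 12.2% of genes. RPKM 1 or more in both Pdgfra-high cells was met by 3 members (Vim, Pdgfra and Acta2) beside 17.2% of genes. Both Pdgfra-high cells lay above every Pax8-bearing cell for 2 members, Vim and, by rule, Pdgfra, beside 0.559% of genes. The median difference over the 5 members besides Pdgfra was 4.25, which is the value of Pdgfrb, and fell to 0.06 without cell 53; over all genes it was -0.51, and -0.65 without cell 53.

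Among genes at RPKM 1 or more in both Pdgfra-high cells, the 15 with the largest difference were Penk, Ldb2, Serping1, Rarres2, Tmem204, Glipr2, Pcolce, Vim, Csrp1, Pdgfra, Snai2, S1pr3, Serpine2, Agtr2 and Ifitm3. Penk led with RPKM 1909 in cell 13 and 6631 in cell 53, beside a median of 0 in the Pax8-bearing cells. Agtr2, the angiotensin type 2 receptor, was at 122 and 398 and in no Pax8-bearing cell at RPKM 1. Pcolce, which enhances collagen processing, was at 319 and 706, and Snai2, a transcription factor of mesenchymal cells, at 284 and 373. Because they were ranked on this difference, these values are a description.

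At RPKM 20 or more, all 15 of these genes were in both Pdgfra-high cells, and the Pax8-bearing cells had a median of 1 and a highest count of 7. The contrast between the groups follows from how the genes were ranked, so only the spread among Pax8-bearing cells is described. That highest count was cell 28, with Penk (246), Serpine2 (206), Ifitm3 (123), S1pr3 (90.9), Serping1 (76.8), Csrp1 (44.5) and Vim. No other Pax8-bearing cell had more than 3. Cells 21, 29 and 33 had 3 of them each, which in cell 29 were Vim, the complement inhibitor Serping1 (422) and Csrp1 (286). In cell 33, Vim, Acta2, Tagln and Cspg4 were all listed at 0.

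**Figure D4:**
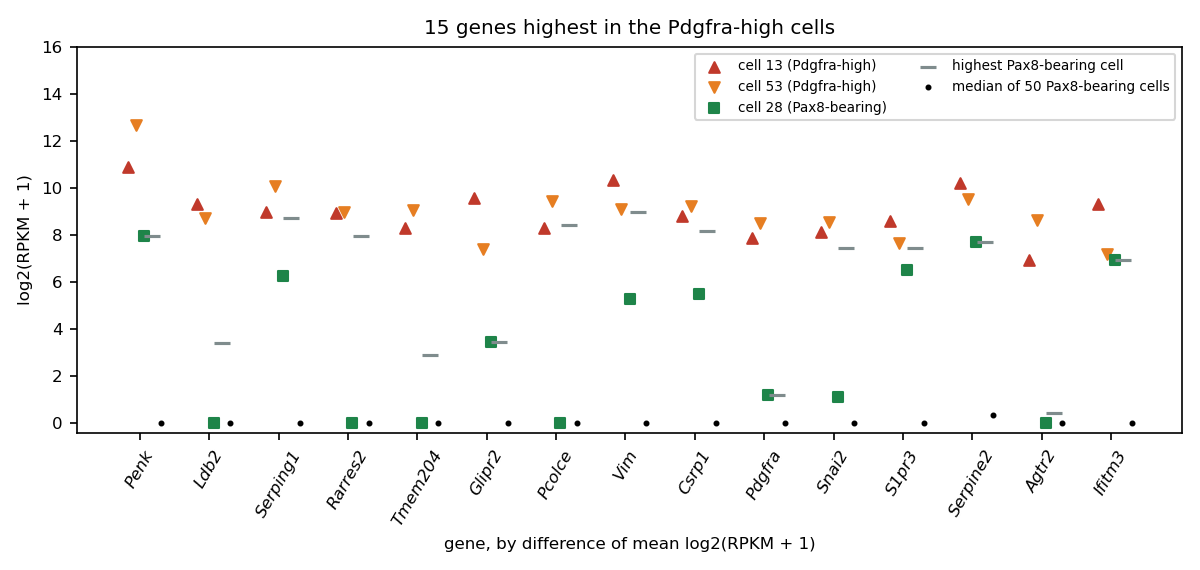
The 15 genes with the largest difference between Pdgfra-high and Pax8-bearing cells (horizontal axis, in rank order), as log2(RPKM + 1). Triangles are cells 13 and 53, squares cell 28, dashes the highest Pax8-bearing cell and dots the median of 50 Pax8-bearing cells, which is 0 for 14 genes and near 0 for Serpine2; cell 28 is itself the highest Pax8-bearing cell for Penk, Glipr2, Pdgfra, Serpine2 and Ifitm3.

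Genes of the stromal lists differed among themselves in the Pdgfra-high pair. Over all 12087 genes, 15.9% were at RPKM 1 or more in both cells, 9.37% were higher by at least 2 and 11.2% lower. Of 24 listed genes of fibroblast matrix, 15 were analysed. Genes were kept only when above RPKM 3 in at least 2 cells, so a gene removed there was not above it in both Pdgfra-high cells. Shares of the analysed genes are therefore not shares of the lists. Of the 15, 9 were at RPKM 1 or more in both cells, 3 in 1 and 3 in neither. Their median difference was 1.53, with 7 higher by at least 2 and 0 lower. Decorin (Dcn) was at 349 and 126 in cells 13 and 53, collagen III (Col3a1) at 231 and 123, fibronectin (Fn1) at 220.4 and 299.7, and Sparc at 321 and 714. Sparc was also in 49 of 50 Pax8-bearing cells at a median of 255. Of 13 listed renal stromal genes 6 were analysed, of which 2 were in both cells, 2 in 1 and 2 in neither. Their median difference was 1.38, with 2 higher by at least 2 and 1 lower. The higher ones were Penk and the homeobox gene Meis1, at 131 and 369. The lower one was Aldh1a2, which makes retinoic acid, at 0.277 and 0 in the pair and detected in 33 of 50 Pax8-bearing cells (difference -4.45). Tnc, tenascin C, differed by -1.20.

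Of 16 listed smooth muscle genes 10 were analysed, of which 5 were in both cells, 4 in 1 and 1 in neither. Their median difference was 2.16, with 5 higher by at least 2 and 1 lower. Calponin 2 (Cnn2) was at 890.3 and 499, the myosin light chain Myl9 at 308 and 377, and tropomyosin 1 (Tpm1) at 34.4 and 187. Tpm1 was not among the 5, with a difference of 1.67. It was also in 44 of 50 Pax8-bearing cells at a median of 41.1, above its level in cell 13. The lower gene was Flna, the actin cross-linker filamin A, at 0.898 and 2.64 beside a median of 25.1 in the Pax8-bearing cells (difference -2.54). Myl9 was also at 798 in cell 28 and 614 in cell 29, above both Pdgfra-high cells. Of 13 listed genes of pericytes and mesangial cells 6 were analysed, of which 0 were in both, 2 in 1 and 4 in neither (median difference -0.31). Besides Pdgfrb, Notch3 was at 1.98 in cell 53, and Rgs5 and Mcam were listed at 0 in both. Of 9 listed intermediate filament genes 4 were analysed (median difference -0.30). Only Vim was in both cells, and the epithelial keratin Krt18 and the lamin gene Lmna were at 0.

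Markers of other cells were set beside these values. Of 13 nephron markers, 2 were in both Pdgfra-high cells, 3 in 1 and 8 in neither. Over all genes 15.9% were in both, so nothing is read from that count. Beside 9.37% and 11.2% of all genes, 0 of the 13 markers were higher by 2 and 6 lower, with Pax8 lower by rule. Their summed RPKM was 85.3 in cell 13 and 143 in cell 53, and 241 to 2642 in the Pax8-bearing cells; what remained was mostly the cyclin Ccnd1 (43.6 and 130) and, in cell 13, Wt1 (35.3). Of 10 macrophage markers only Lyz2, lysozyme, was detected in the pair, at 219 and 304, against 775 to 7942 in the C1qb-high cells and at most 3.59 in the Pax8-bearing ones. C1qa, C1qb and C1qc were at 0 in both, and whether Lyz2 reached them from other cells was not tested. The 3 endothelial markers analysed of 8 listed, and the erythroid marker Alas2, 1 analysed of 3, were below RPKM 1 in the pair.

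In the Pdgfra-high pair none of the 4 PDGF ligands reached RPKM 1. Of the receptors, Pdgfra was present by rule, and Pdgfrb was at 370 in cell 53 and 0.115 in cell 13. Pdgfa, a ligand of the alpha receptor, was detected in 35 of 50 Pax8-bearing cells (70%, interval 55.4 to 82.1) at a median RPKM of 10.9 and a highest value of 345, and listed at 0 in both Pdgfra-high and all 5 C1qb-high cells. Pdgfb, a ligand of both receptors, was detected in 5 of 5 C1qb-high cells, at 1.02, 56.1, 79.0, 1.68 and 190 in cells 1, 25, 35, 46 and 58. It was in 0 of 50 Pax8-bearing cells (upper limit 7.11%) and at 0 in the Pdgfra-high pair. A receptor and a ligand of it met at RPKM 1 or more in cell 29 (Pdgfrb 6.90, Pdgfd 48.8) and cell 28 (Pdgfra 1.31, Pdgfa 1.09). Cell 28 also had Pdgfrb at 1.08, with Pdgfb and Pdgfd listed at 0. The values in cell 28 lay just above the detection level. Pdgfc was in 7 of 50 Pax8-bearing cells and 1 of 5 C1qb-high cells, Pdgfd in 10 and 0, and neither in the Pdgfra-high pair, where 0 of 2 allows a share of up to 84.2%.

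**Figure D5:**
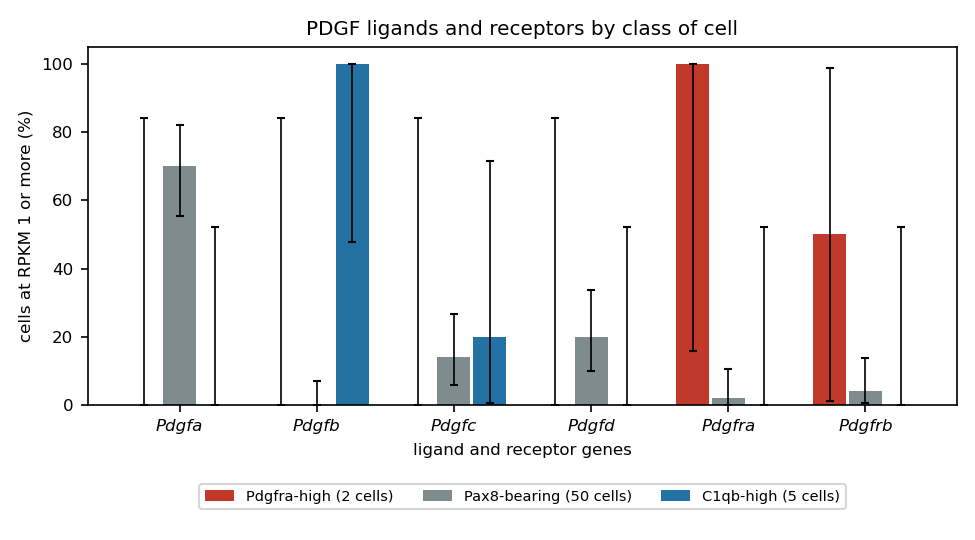
Share of cells at RPKM 1 or more (vertical axis, percent) for 4 PDGF ligand genes and 2 receptor genes in the 2 Pdgfra-high, 50 Pax8-bearing and 5 C1qb-high cells. Lines are exact 95% intervals; Pdgfa is at 70% in Pax8-bearing cells, Pdgfb at 100% in C1qb-high cells, and the Pdgfra-high cells were chosen by Pdgfra.

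All 13 genes of the PDGF list were analysed, with a median difference of -0.25. In both Pdgfra-high cells was 1 (Pdgfra, by rule), beside 15.9% of all genes, with 4 in 1 cell and 8 in neither. The signalling adaptor Gab1 was at RPKM 174 in cell 13 and 0.223 in cell 53, and the phosphatase gene Ptpn11 at 35.7 and 0. Grb2 and Shc1, adaptors that bind activated receptors, were listed at 0 in both, beside 26 and 21 of 50 Pax8-bearing cells with RPKM 1 or more.

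For the 4 members detected in at least 5 cells, the genes with the most similar pattern were ranked by Spearman rho over 57 cells among 10054 genes, as a description with no test. For Vim they were Penk (0.53), Bgn (0.51), Cdh11 (0.51), Sos2 (0.49) and Rpain (0.47); all 6 cells with the matrix proteoglycan Bgn carried Vim. For Acta2 they were Maged2 (0.49), Thumpd2 (0.49), Alx1 (0.48), Wdr45 (0.47) and Tmcc1 (0.47). For Tagln they were Slc26a7 (0.53), Dpp3 (0.49), Ubr3 (0.49), Capns1 (0.46) and Zfp524 (0.46), and for Cspg4 Wrb (0.55), Dcaf12l1 (0.51), Pmp22 (0.50), Dcdc2c (0.49) and Tfpt (0.48). No member was among the 5 for another. Pdgfra and Pdgfrb could not be, because ranked genes had to be detected in at least 5 cells. The values are modest, many cells are tied at 0, and the cells share a run and lane and differ in depth.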

How the data were processed

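Capture used the Fluidigm C1 system, and the transcripts were amplified with the SMARTer kit and made into Nextera XT libraries, per the labels' protocols. Strand was not kept and molecules were not tagged, so antisense reads cannot be told apart and amplified copies are counted as reads. The deposited values are RPKM per gene and cell, not logged, per the file headers. TopHat 1.4.1, DESeq and build mm9 are named in the submitters' processing notes without a role; the counter, gene lengths and handling of reads with several matches are not given in the sources used here. A smaller table of the authors holds RPKM values and a signed fold, treated as a score, between a proximal and a distal class; no member has an entry in it, and it was not used. 0 columns of values per cell could not be mapped to a sample. Promoter sequences are from RefSeq on GRCm38.p6 and were not placed on mm9; Tagln and Pdgfrb are not shown.

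Shares, means, log2(RPKM + 1) differences and Spearman rho were computed in Python 3.11.15 with numpy 2.4.6, pandas 2.3.3 and scipy 1.17.1. Reads per cell were estimated from the smallest steps of low RPKM values of genes with 1 transcript and are approximate; the steps were tested on simulated data. Detection was set at RPKM 1, Pax8-bearing at 5, Pdgfra-high at 100 and C1qb-high at 1000, with a pseudocount of 1 and a mean RPKM of 1 or more for counts over all genes. The cells form 1 group with no animal or pool named for each, and are not replicates, so no p-value was computed. The members, lists and thresholds were chosen with earlier results of these data known. Named genes are the 6 members, the 5 genes most like each member, the 15 genes with the largest difference in the Pdgfra-high cells, up to 4 of each marker list by level there, Pax8 and Actb. Genes named besides these, among them the PDGF ligands, adaptors, Cdh1, Cdh6, Col1a1, Jag1, Srf, Aldh1a2, Tnc, Flna and Rgs5, were chosen after their values were seen. Alternatives changed the detection level, the class thresholds, the pseudocount, the scaling of cells, the filter and the cells included.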

Additional observations from a re-analysis of the deposited data

How the results depend on the processing

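Of the alternatives, 78 of 103 for counts of cells, 57 of 68 for differences and 2 of 2 for the Vim level were labelled the same. For differences and the Vim level this means the same sign and a move below the SD over cells, a wide limit. Under it, pseudocounts of 10 and 0.1 gave differences of 5.75 and 10.4 for Vim and 4.46 and 8.98 for Acta2. Among counts labelled the same, Acta2 with Pax8 went from 14 to 21 cells with any value above 0. Leaving out a Pdgfra-high cell could not move Cspg4, which was 0 in both. Leaving out the C1qb-high cells could not move a count together with Pax8. Nor could it move a count of any member but Vim, as none of these reached RPKM 1 there. The tallies include such settings, so they overstate how stable the results are. With any value above 0 counted as detected, Vim was in 26 cells, Pdgfra in 14, Pdgfrb in 6 and Acta2 in 25, together with Pax8 in 22 cells for Vim, 12 for Pdgfra and 4 for Pdgfrb, and 16 cells had at least 2 mural members. At RPKM 5, Tagln was in 7 cells, all with Pax8, and Pdgfra and Pdgfrb were with Pax8 in 0 and 1. At RPKM 20, Pdgfrb was in 1 cell, Tagln in 6 and Cspg4 in 0, together with Pax8 in 0 for Pdgfra, 0 for Pdgfrb, 6 for Tagln and 0 for Cspg4, and 5 cells had at least 2 mural members. Settings chosen after seeing the data were detection at 3 or more estimated reads (Pdgfra in 5 cells, 3 of them with Pax8), leaving out cell 28 (with Pax8, Pdgfra in 0 and Pdgfrb in 1) and leaving out cell 29 (with Pax8, Pdgfrb in 1). In the log2 difference between Pdgfra-high and Pax8-bearing cells, a pseudocount of 0.1 gave 11.21 for Pdgfra, 6.20 for Pdgfrb and 0.27 for Tagln, whose sign turned; a pseudocount of 10 gave 4.92 for Pdgfra and 2.61 for Pdgfrb, and scaling by 306 genes detected in every cell gave 8.47 for Pdgfra. Leaving out either Pdgfra-high cell gave 7.83 to 8.45 for Pdgfra and 0.058 to 8.43 for Pdgfrb, and 0.47 for Tagln without cell 13. Pdgfra thresholds of 20 and 50 took the same 2 cells, so they could not move a difference, though they are in the tallies too. No paired analysis was possible because there is 1 group. Depth limits the low values: a gene listed at 0 may have been present below about 3 reads, and intervals cover the drawing of cells, not animals. How many animals or pools gave the cells is not stated in the labels, and 2 Pdgfra-high cells cannot show how such cells vary.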
